A study of Thlaspi arvense with 6 samples.

Results

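CRABS CLAW (CRC) and YABBY2 (YAB2) were the members of the YABBY and BLADE-ON-PETIOLE (BOP) gene set that could be followed as loci in the nectaries of pennycress (Thlaspi arvense), and both were higher in mature than in immature nectaries. Normalized counts of CRC were 1.55 times as high in mature nectaries (95% interval 1.05 to 2.30) and those of YAB2 2.00 times (1.43 to 2.85), in each case with every mature sample above every immature sample (n = 3 per stage). Such a separation, with mature above immature, was found in 30.9% of the 11780 loci tested. A contig matched to YABBY5 (YAB5), which the authors' table placed inside a locus of another gene, was 3.15 times as high, but was kept in the data only through its mature values. The stage difference of CRC was close to the threshold of the test, and its call was lost in 11 of 19 alternative ways of processing. That of YAB2 was not close to it and was called in all 19.

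Loci entered the set by their Arabidopsis match. Contigs (assembled transcript pieces) were summed for each predicted pennycress protein, which is called a locus here, and a locus took the Arabidopsis match of its most abundant contig. Of the 7 Arabidopsis genes listed, namely CRC (AT1G69180), FILAMENTOUS FLOWER (AT2G45190), YAB2 (AT1G08465), YABBY3 (AT4G00180), YAB5 (AT2G26580), BOP1 (AT3G57130) and BOP2 (AT2G41370), 2 were found in this way among 12335 loci. CRC was locus Ta06676 and YAB2 was locus Ta07536, each made of 1 contig, so that no summing of contigs entered their values. FILAMENTOUS FLOWER, YABBY3, BOP1 and BOP2 had no matching contig and are not analysed here, and neither is INNER NO OUTER, the YABBY gene of ovules. The results below therefore concern YABBY genes alone, and those of BOP only through genes known to act with it.

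YABBY genes encode plant transcription factors with a zinc finger and a DNA-binding YABBY domain, and in Arabidopsis most of them are expressed on the abaxial (lower) side of lateral organs. CRC is the member known for the carpel and the nectary: Arabidopsis plants that lack it form no nectaries, and its expression continues in the mature gland. YAB2 and YAB5 belong to the members expressed in leaves as well as floral organs. BOP1 and BOP2 are co-activators with a BTB domain and ankyrin repeats, and Arabidopsis plants that lack both fail to form normal nectaries.

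CRC is the gene on which the results turn most, and the study designed a primer pair for RT-PCR of its transcript. The pair is shown here because it marks the ends of the stretch by which pennycress CRC can be followed outside the sequencing; its RT-PCR is not analysed here. Both are given 5′ to 3′, and each is 20 bases long.
CRC forward primer: tgaaatgcggccattgcggt
CRC reverse primer: ctcgcacacgtgcgtttgtt

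RNA was sequenced from 6 samples of nectaries of the pennycress cultivar MN108, 3 immature and 3 mature, grown alike under a 16 hour day, and the labels name no mutation, transgene or treatment in either group. Immature nectaries were pre-secretory and came from flowers equivalent to Arabidopsis stages 11 to 12, whereas mature nectaries were secreting nectar and came from stages 14 to 15. All nectaries were cut by hand from primary inflorescences of plants about 40 days old, at 4 to 8 hours after dawn, and nectaries from a different set of plants were pooled for each sample. The labels give about 100 nectaries per sample, and the methods of the study give a larger number. A sample is therefore a pool, and neither single plants nor single glands can be distinguished in it.

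The samples held 10572166 (immature sample 3) to 22709136 (mature sample 2) normalized counts. In reads the order of these ends was reversed, with approximately 16.9 M in immature sample 3, the most, and 11.7 M in mature sample 2, the fewest. Ribosomal RNA took 12.4% to 41.8% of the immature and 27.0% to 62.6% of the mature samples. Without ribosomal RNA and organelles, approximately 14.7 M reads were left in immature sample 3, the most, and 4.32 M in mature sample 2, the fewest. All 6 nectary markers examined had a locus, and their summed normalized counts were 137289 to 240188 in immature and 379081 to 423060 in mature nectaries. SWEET9 (the nectar sucrose transporter), CWINV4 and JMT were higher and MNC1 lower in mature nectaries. MYB21 (log2 fold change 0.40, limma adjusted p = 0.0747) and PIN6 (-0.70, limma adjusted p = 0.110) did not pass the test. Of 13 pollen and anther markers 4 had a locus, and their sum was 168 to 430 in the immature samples and 25099, 2969 and 7803 in mature samples 1, 2 and 3. Of 8 carpel and ovule markers 1 had a locus, STYLISH1, at 135, 114 and 94 in immature and 56, 31 and 50 in mature nectaries. The other markers of these lists are not analysed here. Of 3 phloem markers 2 had a locus, of which SEOR1, a sieve element protein, was lower in mature nectaries, at 171, 327 and 203 in immature and 3, 14 and 12 in mature samples 1 to 3 (log2 fold change -4.62, limma adjusted p = 0.000162), and SUC2 did not pass the test. Of 7 stomatal markers 1 had a locus, FAMA, which was lower as well (-0.80, limma adjusted p = 0.0138), and of 4 xylem markers none. Loci were tested if their mean reached 100 normalized counts in either stage. SEOR1, SUC2, FAMA and STYLISH1 reached it only in immature nectaries, so that a decrease was favoured in them. The pollen markers VGDH2, AGP6 and AGP11 reached it only in mature nectaries, so that an increase was favoured.

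CRC, a regulator of nectary formation, remained abundant in the secreting gland and was higher there than before secretion. It was at 21190, 18252 and 26192 normalized counts in immature samples 1, 2 and 3, and at 37306, 28800 and 35361 in mature samples 1, 2 and 3. The stages did not overlap, although the lowest mature sample exceeded the highest immature sample by a factor of only 1.10. The means were 21878 ± 4014 (SD, n = 3) and 33822 ± 4457 (SD, n = 3), a log2 fold change of 0.64 (SE 0.24, 95% interval 0.07 to 1.20). The difference passed the test across all loci narrowly (limma, adjusted p = 0.0490). In bulk samples such as these, more cells that express a gene and more RNA per cell cannot be told apart.

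**Figure D1:**
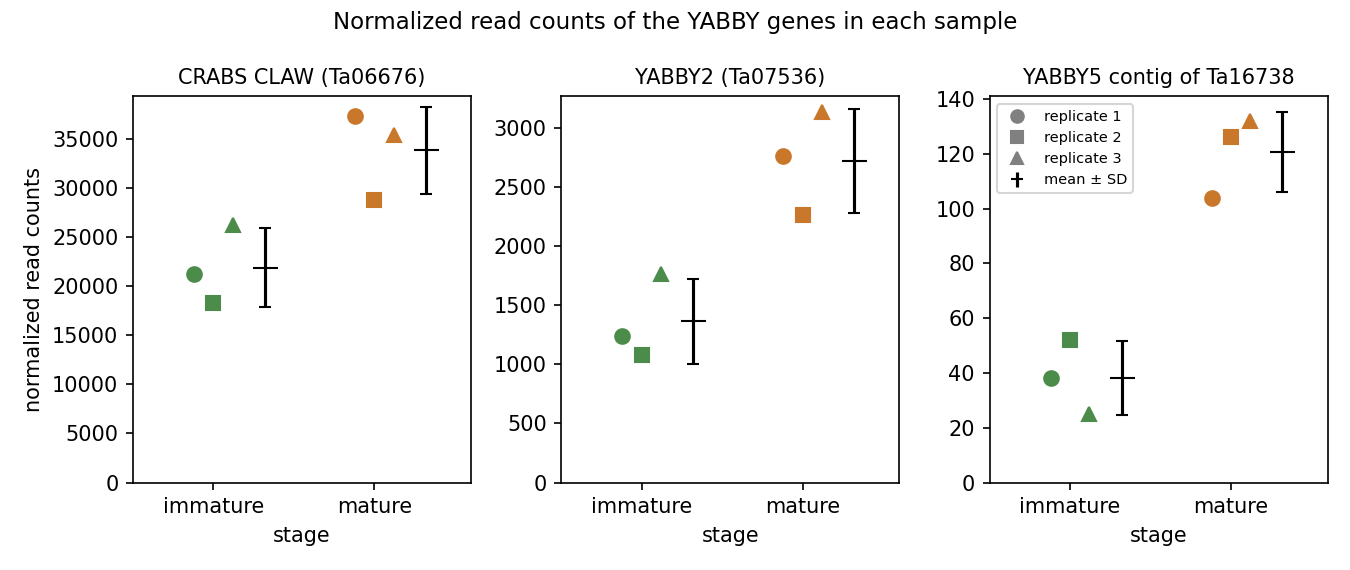
Normalized counts (vertical axes, linear from 0) of CRC, YAB2 and the YAB5 contig in each of the 3 immature and 3 mature samples (points), with the stage mean and SD (bars). The mature points lie above the immature points in each panel, with the narrowest gap in CRC (26192 against 28800).

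The replicates of CRC spread more than reads alone allow. Its values rested on approximately 14811 to 41774 reads per sample, for which the counting error is under 1% (0.49% to 0.82%), whereas the coefficient of variation between replicates was 18.3% in immature and 13.2% in mature nectaries. Within each stage CRC was lower the higher the share of ribosomal RNA was, which was 32.5%, 41.8% and 12.4% in immature samples 1 to 3 and 27.0%, 62.6% and 39.2% in mature samples 1 to 3. After each sample was rescaled to its total over loci, CRC was at 23180, 20243 and 25749 in immature and 31836, 31233 and 32952 in mature nectaries. The mature samples were then close to each other, with a coefficient of variation of 2.73%, and the immature samples remained apart at 11.9%.

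The call for CRC was not stable. It was lost when samples were rescaled to their total over loci (log2 fold change 0.48, limma adjusted p = 0.0623), and in 11 of the 19 alternatives run in all. The other 8 kept it, among them rescaling by median-of-ratios size factors (0.74, limma adjusted p = 0.0143). The direction stayed the same in all 19. Leaving out 1 sample at a time gave log2 fold changes of 0.51 to 0.77, and the call remained only without immature sample 3 (0.77, limma adjusted p = 0.0192), while it was lost without immature sample 1 (0.62, 0.147), immature sample 2 (0.51, 0.202), mature sample 1 (0.56, 0.0994), mature sample 2 (0.75, 0.0545) or mature sample 3 (0.60, 0.133). With the ribosomal RNA share of each sample as a covariate, added after the data were seen, the log2 fold change was 0.82 (limma adjusted p = 0.00820). Mature sample 1, which had the most CRC, also had the highest sum of pollen and anther markers, and mature sample 2 had the least of both; their part in the result was not tested, and CRC without mature sample 1 is given above.

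YAB2, a YABBY gene of leaves and floral organs, was also higher in mature nectaries. It was at 1240, 1083 and 1769 normalized counts in immature samples 1, 2 and 3 and at 2767, 2264 and 3135 in mature samples 1, 2 and 3. Every mature sample exceeded every immature sample, the lowest mature sample by a factor of 1.28 over the highest immature sample. The means were 1364 ± 359 (SD, n = 3) and 2722 ± 437 (SD, n = 3), and the log2 fold change was 1.02 (SE 0.22, 95% interval 0.52 to 1.51, limma adjusted p = 0.00370). These values rested on approximately 930 to 3066 reads per sample, with counting errors of 1.81% to 3.28%. The coefficient of variation between replicates was 26.4% in immature and 16.1% in mature nectaries, larger than that of CRC at both stages. YAB2 passed the test in all 19 alternatives, with log2 fold changes of 0.86 to 1.23 and adjusted p of 0.000382 to 0.0188.

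Against the background of all loci, a rise of this kind was common. Both members were called higher (2 of 2), as were 28.4% of the 11780 loci tested, while 0 of 2 were called lower, as were 35.9% of all loci, and 0 were lower at an unadjusted p under 0.05 or with voom weights. Samples of the stages did not overlap, with mature above immature, in both members and in 30.9% of all loci, and the reverse held in 0 of 2 members and 39.1% of all loci. With a 2-fold change required as well, 13.8% of all loci were called higher but neither member, since this rule reads the ratio of means, which was 1.996 for YAB2. The fitted log2 fold change of YAB2, 1.02, lies just above 2-fold. A larger log2 fold change than that of CRC was found in 23.1% of the loci tested, and a larger one than that of YAB2 in 13.6%.

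**Figure D2:**
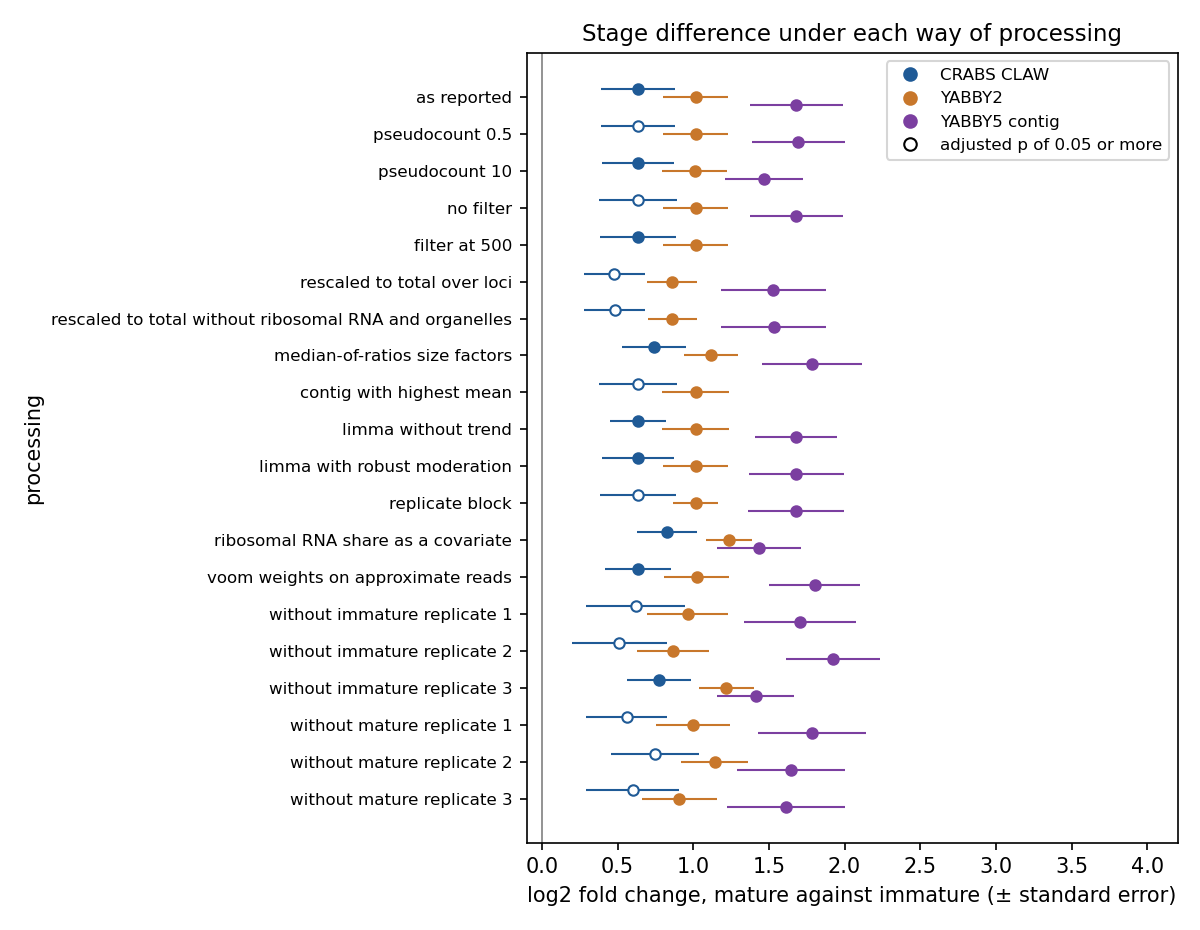
Log2 fold change of mature against immature nectaries (horizontal axis, ± standard error) of CRC, YAB2 and the YAB5 contig under the processing reported and each alternative (rows). Filled points have an adjusted p under 0.05: all YAB2 points are filled, whereas CRC lies between 0.48 and 0.82 and is open in 11 of 19 alternatives. The YAB5 contig was kept only through its mature values.

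The balance between the members was compared within each sample, since a ratio of loci does not change with the scaling of a sample. YAB2 normalized counts were 5.86%, 5.94% and 6.76% of those of CRC in immature samples 1, 2 and 3, and 7.42%, 7.86% and 8.87% in mature samples 1, 2 and 3. The share was higher in each mature sample than in any immature sample. The log2 ratio was higher by 0.38 in mature nectaries (0.31 to 0.45 when 1 sample was left out), with p = 0.1 in the two-sided exact permutation test, the smallest value that 3 against 3 samples can give, and 0.2 after adjustment over the 2 ratios tested. The shares are of counts and are not corrected for transcript length, so only their change between samples can be read.

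YAB5 entered the data as 1 minor contig and not as a locus. In the authors' table it shares locus Ta16738 with a contig matched to lupeol synthase 2 (AT1G78960), an enzyme that cyclizes a squalene derivative to triterpenes, and that contig holds 98.2% of the normalized counts of the locus. The rule for members therefore did not take Ta16738, and the YAB5 contig was singled out after its values were seen. It was at 38, 52 and 25 normalized counts in immature samples 1, 2 and 3 and at 104, 126 and 132 in mature samples 1, 2 and 3. All mature samples lay at least 2-fold above the immature samples, in contrast to the narrow gap in CRC.

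The YAB5 contig averaged 38.3 ± 13.5 (SD, n = 3) in immature and 121 ± 14.7 (SD, n = 3) in mature nectaries, with a log2 fold change of 1.68 (SE 0.31, 95% interval 0.97 to 2.39, limma over contigs, adjusted p = 0.00213). In the same fit 27.5% of 14936 contigs were called higher, and 6.85% had a larger log2 fold change. The contig passed the filter of 100 normalized counts only through its mature mean, and the deposited table itself holds only contigs that reached 101 in some sample. A higher mature value was therefore favoured by the choice of contigs, and the test is given as a description of these values. Its values rested on approximately 40 to 115 reads per sample, with counting errors of 9.32% to 15.8%, beside coefficients of variation between replicates of 35.2% in immature and 12.2% in mature nectaries. Over 17 alternatives its log2 fold change was 1.41 to 1.93.

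The lupeol synthase 2 contig of the same locus was at 2083, 2075 and 2983 in immature samples 1, 2 and 3 and at 6864, 4590 and 6805 in mature samples 1, 2 and 3. It rose by a log2 fold change of 1.35 (SE 0.23, limma over contigs, adjusted p = 0.00158), so that both contigs of the locus were higher in mature nectaries. The YAB5 contig made up 1.79%, 2.44% and 0.831% of the locus in immature samples 1 to 3 and 1.49%, 2.67% and 1.90% in mature samples 1 to 3. These shares overlapped between the stages, and their order over the 6 samples was that of the ribosomal RNA share. Whether the contigs belong to 1 gene was not tested, and ribosomal RNA was not tested as a source of that order.

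**Figure D3:**
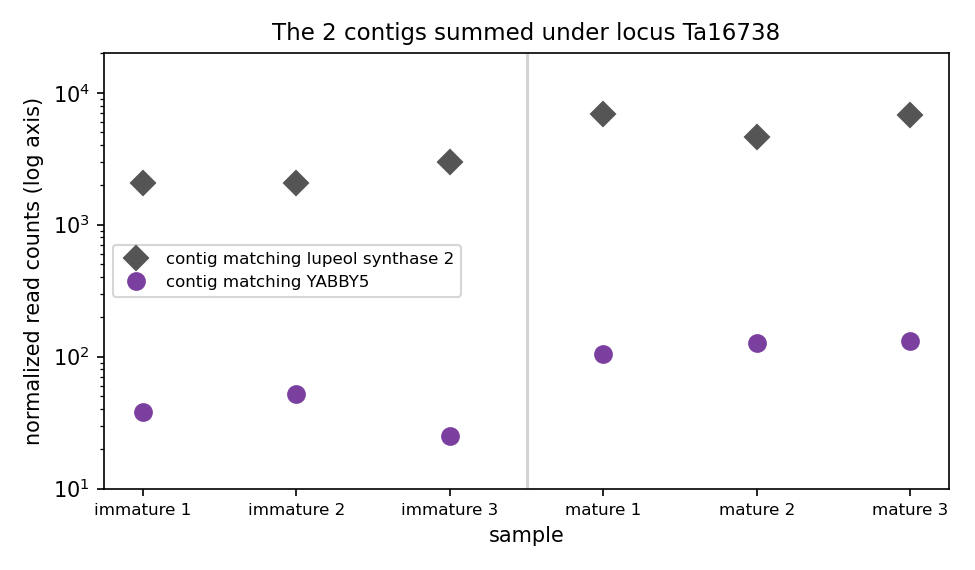
Normalized counts (vertical axis, log scale) of the lupeol synthase 2 contig and the YAB5 contig of locus Ta16738 in the 6 samples. Both contigs are higher in all mature samples than in any immature sample.

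Relative to CRC, the YAB5 contig was at 0.184%, 0.290% and 0.0993% of its normalized counts in immature samples 1, 2 and 3 and at 0.281%, 0.441% and 0.376% in mature samples 1, 2 and 3. The stages overlapped, as immature sample 2 lay above mature sample 1. The log2 ratio was 1.05 higher in mature nectaries and did not pass the two-sided exact permutation test (p = 0.2, also 0.2 after adjustment over the 2 ratios).

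Loci were then ranked by how closely their pattern over the 6 samples followed that of CRC, as the root mean square difference of log2 values centred on their own mean, among the 2414 loci whose mean reached 1000 normalized counts in at least 1 stage. The closest was Ta17871, matched to an AAA-type ATPase (AT4G02480), at 0.0498 on the log2 scale, with 2116, 2011 and 2635 normalized counts in immature and 3800, 2940 and 3521 in mature samples 1 to 3. Next were Ta14087, matched to LOB domain-containing protein 41 (AT3G02550), at 0.0547, and Ta26571, matched to global transcription factor group A2 (AT4G08350), at 0.0587. Ta04153, matched to a 2-oxoacid dehydrogenase acyltransferase (AT3G06850), followed at 0.0622, and Ta12596, matched to a TFIIS family transcription elongation factor (AT1G32130), at 0.0685. All 5 had their lowest value in immature sample 2, as CRC had, and their highest in mature sample 1, as CRC had, or in mature sample 3 (Ta12596). YAB2 ranked 396 of 2414, at 0.215 against a median of 0.524. These likenesses share the same 6 libraries and their scaling and are given as a description.

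Genes that act in the same processes in Arabidopsis were followed by lists: 33 of 65 listed genes had a locus, 34 loci in all, of which 32 passed the filter of 100 normalized counts. Among these 32 the test called 8 higher (25%) and 11 lower (34.4%), close to the 28.4% and 35.9% of all loci, and 13 did not pass it. The median log2 fold change was 0.13 against -0.09 over all loci. Of the 32 loci 6 passed the filter only through their immature mean, namely both REVOLUTA loci, PHABULOSA, AS1, APETALA1 and TORNADO2, so that a decrease was favoured in them.

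Adaxial factors, which specify the upper side of lateral organs opposite to the YABBY side, had 5 tested loci, all called lower in mature nectaries (35.9% of all loci were). Since 4 of them passed the filter only through their immature mean, that count is not read as a result about the list. PHAVOLUTA (Ta13972), an HD-ZIP factor and the 1 locus above the filter at both stages, was at 483, 511 and 478 normalized counts in immature and 259, 282 and 253 in mature samples 1 to 3 (log2 fold change -0.89, limma adjusted p = 0.000377). Asymmetric Leaves1 (AS1, Ta02130), a MYB factor, was at 640, 517 and 563 normalized counts in immature samples 1 to 3 and at 64, 76 and 114 in mature samples 1 to 3 (log2 fold change -2.78, limma adjusted p = 2.39e-05). REVOLUTA, a class III HD-ZIP factor, had its higher locus Ta24938 at 358, 271 and 300 in immature and 68, 95 and 62 in mature nectaries (-2.05, limma adjusted p = 7.28e-05). All immature samples of AS1 and REVOLUTA were at least 2-fold above the mature samples. AS1 and both REVOLUTA loci were kept through their immature mean alone, so that a decrease was favoured and their tests only describe these values. Over all loci tested, 39.1% had every immature sample above every mature sample. The second REVOLUTA locus, Ta05891, fell from 136, 122 and 83 to 32, 23 and 26. PHAVOLUTA kept its direction and call in all 18 alternatives in which it had a value. The phloem marker SEOR1 and the stomatal marker FAMA, given above, were also lower in mature nectaries, each kept through its immature mean alone. The other phloem marker, SUC2, did not pass the test. The part of phloem and stomata in these decreases was not tested.

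Abaxial factors outside the YABBY family had 1 of 3 tested loci higher, 1 lower and 1 not past the test, beside 28.4% and 35.9% of all loci. KANADI1 (Ta04432), a GARP factor of the abaxial side, was at 631, 688 and 820 in immature samples 1 to 3 and 1239, 1317 and 960 in mature samples 1 to 3 (log2 fold change 0.71, limma adjusted p = 0.00680). ETTIN (Ta23405), an auxin response factor, went the other way, from 878, 869 and 862 to 463, 277 and 302 (-1.36, limma adjusted p = 0.000503). ARF4, its close relative, had a log2 fold change of -0.30 (limma adjusted p = 0.226; 0.0413 and called lower after rescaling to the total over loci). KANADI1 thus shared the direction of CRC and YAB2, and ETTIN did not.

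The co-repressors that bind YABBY proteins in Arabidopsis, LEUNIG, LEUNIG HOMOLOG, SEUSS, SEUSS-LIKE 2 and SEUSS-LIKE 3, were measured in 5 loci. None passed the test as reported (0 of 5 by limma, 0 at an unadjusted p under 0.05 and 0 with voom weights), with log2 fold changes of 0.21 to 0.37 and adjusted p of 0.0815 to 0.321. This depended on the processing: 4 of 5 were called higher with median-of-ratios size factors (log2 fold changes of 0.31 to 0.47 over the 5), 5 of 5 with the ribosomal RNA share as a covariate (0.37 to 0.51) and 4 of 5 without mature sample 2 (0.32 to 0.52). The 1 locus of a listed CRC partner or target, TORNADO2 (Ta09004), a tetraspanin gene that CRC represses in Arabidopsis carpels, was at 279, 253 and 210 in immature samples 1 to 3 and at 12, 21 and 5 in mature samples 1 to 3 (log2 fold change -4.36, limma adjusted p = 9.28e-05). TORNADO2 passed the filter only through its immature mean, so that a decrease was favoured, and its mature values rest on few reads. SEOR1, also kept through its immature mean alone, fell alongside it, whereas the phloem marker SUC2 did not pass the test (-0.41, limma adjusted p = 0.385). The part of phloem in the decrease of TORNADO2 was not tested.

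**Figure D4:**
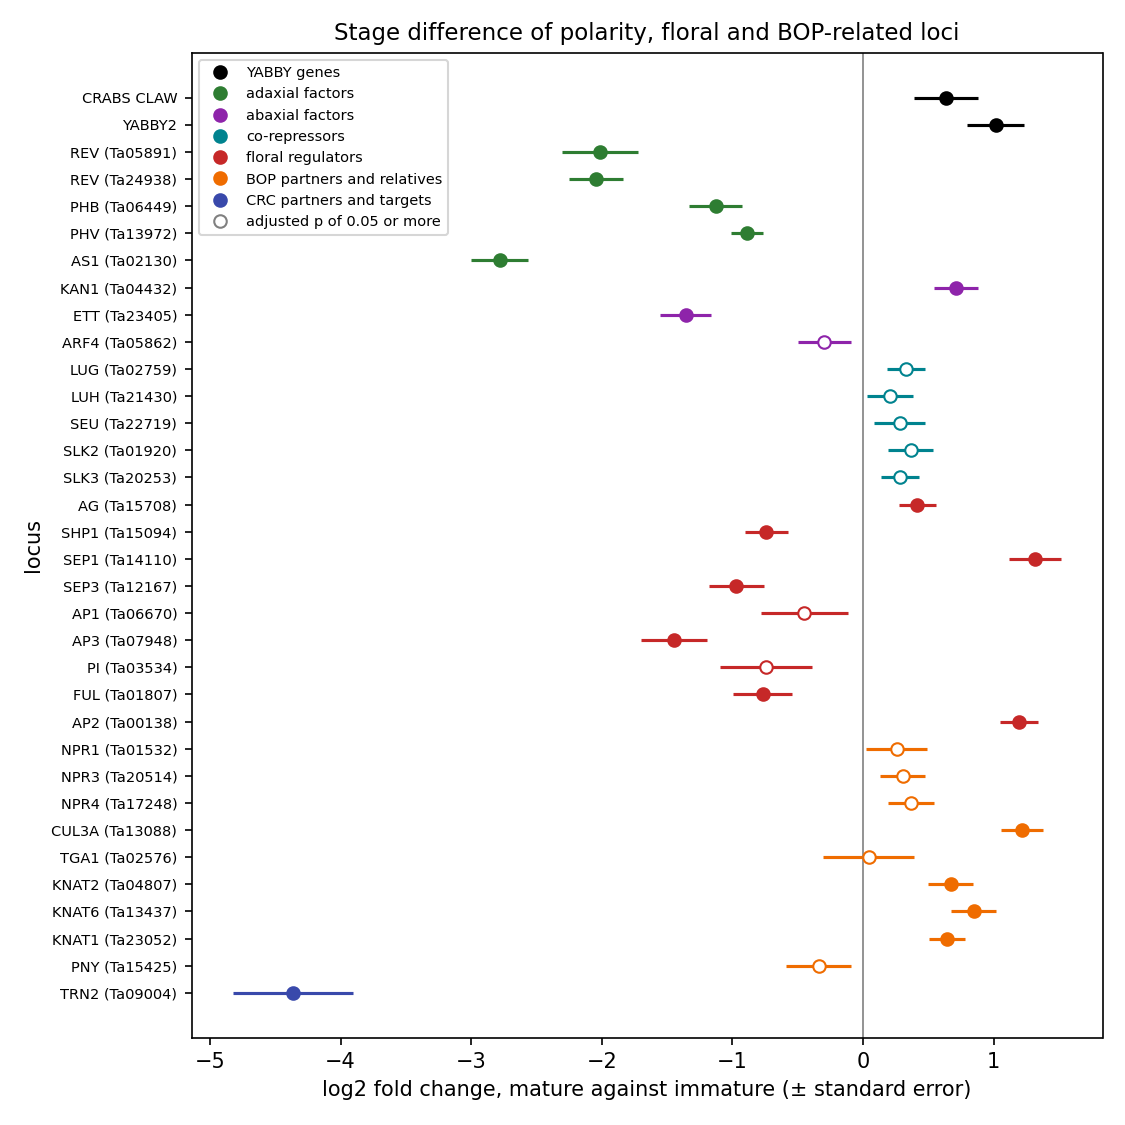
Log2 fold change of mature against immature nectaries (horizontal axis, ± standard error) of CRC, YAB2 and the 32 tested loci of the lists (rows, coloured by list), with open points at an adjusted p of 0.05 or more. Adaxial factors lie left of 0 (-2.78 to -0.89), 4 of the 5 having passed the filter only through their immature mean, co-repressors just right of it (0.21 to 0.37) with open points, and TORNADO2, kept through its immature mean alone, farthest left (-4.36).

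Floral regulators, among which the MADS factors AGAMOUS, SHATTERPROOF and SEPALLATA act upstream of CRC in Arabidopsis, had 9 tested loci. Of these 3 rose, 4 fell and 2 did not pass the test, beside 28.4% higher and 35.9% lower of all loci. SEPALLATA1 (Ta14110, a locus that also sums a contig matched to another gene) was at 1839, 1691 and 2310 in immature samples 1 to 3 and 4115, 4523 and 5992 in mature samples 1 to 3 (log2 fold change 1.32, limma adjusted p = 0.000602). APETALA2 (Ta00138), an AP2-domain factor, rose from 1421 ± 173 to 3233 ± 141 (SD, n = 3; 1.19, limma adjusted p = 0.000204). SEPALLATA3 (-0.97, limma adjusted p = 0.00406) and the petal and stamen gene APETALA3 (-1.44, limma adjusted p = 0.00134) were lower in mature nectaries. SEPALLATA1 and SEPALLATA3 thus changed in opposite directions.

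The remaining called floral regulators are named after their values were seen. AGAMOUS (Ta15708), the carpel and stamen identity gene, was at 1853, 1694 and 2099 in immature samples 1 to 3 and 2608, 2452 and 2445 in mature samples 1 to 3, with no overlap (log2 fold change 0.42, limma adjusted p = 0.0317). Its call was lost in 6 of 19 alternatives, namely both rescalings to totals and leaving out immature sample 1, immature sample 2, mature sample 1 or mature sample 3 (0.26 to 0.52 and adjusted p of 0.00598 to 0.144 over the 19). SHATTERPROOF1 (Ta15094) was lower, at 1268 ± 162 and 761 ± 120 (SD, n = 3; -0.74, limma adjusted p = 0.00489), and so was FRUITFULL (-0.77, limma adjusted p = 0.0167; 0.0633 without immature sample 3). Of the genes upstream of CRC in Arabidopsis, AGAMOUS and SEPALLATA1 thus shared its direction here, and SHATTERPROOF1 and SEPALLATA3 did not.

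Of the partners and relatives of BOP 4 of 9 tested loci were higher and 0 lower (0 lower at an unadjusted p under 0.05 and 0 with voom weights), beside 28.4% higher and 35.9% lower of all loci. The median log2 fold change was 0.36. CULLIN3A (Ta13088, which also sums a CULLIN3B contig), the ubiquitin ligase scaffold to which BOP proteins bind as adaptors, was at 942, 933 and 1195 in immature samples 1 to 3 and 2567, 2097 and 2466 in mature samples 1 to 3 (log2 fold change 1.22, limma adjusted p = 0.000290). The KNOX homeobox genes, which interact genetically with BOP in Arabidopsis, rose by less: KNAT6 by 0.85 (limma adjusted p = 0.00311), KNAT1 by 0.64 (0.00406) and KNAT2 by 0.67 (0.00880). The calls of KNAT1 and KNAT2 did not hold in every alternative. KNAT1 had an adjusted p of 0.0577 when only the contig with the highest mean was used, and KNAT2 one of 0.0532 after rescaling to the total over loci. NPR1, NPR3, NPR4, TGA1 (Ta02576, which also sums a TGA4 contig) and PENNYWISE did not pass the test as reported. With median-of-ratios size factors NPR3 and NPR4 were called higher as well, with the ribosomal RNA covariate NPR1 and NPR3, without mature sample 2 NPR1 and without mature sample 3 NPR4, and PENNYWISE was called lower without mature sample 1 (limma adjusted p = 0.00618).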

How the data were processed

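Poly(A) RNA of 3 immature and 3 mature nectary samples was sequenced as 50 bp paired-end reads. The authors assembled contigs per stage with Trinity, merged them with an earlier transcriptome and assigned contigs to predicted proteins and Arabidopsis genes by sequence similarity. The deposited score of each contig is the authors' read count, upper-quartile normalized and rounded to whole numbers, so no count model was applied. Each of the 16074 contigs reached at least 101 in some sample, and 617 had no locus. The authors' columns of comparisons (stage means, ratios and p-values) and their table summed per locus were not used.

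Counts were summed per locus and tested with limma 3.58.1 (R 4.3.3, mean-variance trend) on log2(sum + 1). The 11780 loci whose immature or mature mean reached 100 were kept, with Benjamini-Hochberg adjustment over all of them and a threshold of 0.05. Fold changes on this scale understate those of low loci. Contigs were tested alike. Ratios to CRC were tested by two-sided exact permutation. Reads per sample were estimated from the gaps between low values, and counting errors from these reads. Further tools were scipy 1.17.1, numpy 2.4.6 and pandas 2.3.3 under Python 3.11.15, with matplotlib 3.10.9 for figures. The fit was tested on simulated data.

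The members, the gene lists and the markers were chosen with earlier results of these data known. All members present were named, with up to 4 called loci of each list by smallest adjusted p, and the 5 loci most like CRC. Alternatives were the pseudocount, the filter, rescalings, the choice of contig, limma settings, a replicate block and leaving out each sample. A covariate for ribosomal RNA, voom weights on approximate reads and the alternatives for the YAB5 contig were chosen after seeing the data. In rescaled data the median log2 fold change of all loci moved from -0.09 to -0.26 (totals) or 0.03 (median of ratios).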

Additional observations from a re-analysis of the deposited data

Results flagged for a closer look

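The contigs below match listed genes but have no locus, so that no comparison of the report used them. A contig matched to SEUSS-LIKE 1, a co-repressor of the LEUNIG and SEUSS group, was present at a mean of 198 normalized counts over the 6 samples, with 220, 218 and 146 in immature and 209, 198 and 198 in mature samples 1 to 3 (log2 fold change 0.08, limma over contigs, adjusted p = 0.752). The stages overlapped. A contig matched to SHATTERPROOF1 was present at a mean of 84.7 normalized counts over the 6 samples, with 112, 115 and 148 in immature and 51, 39 and 43 in mature samples 1 to 3 (log2 fold change -1.47, limma over contigs, adjusted p = 0.000961). It passed the filter only through its immature mean and was lower in every mature sample, which was also the direction of the SHATTERPROOF1 locus.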

How the results depend on the processing

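YAB2 kept direction and call in 19 of 19 alternatives, and left-out samples gave 0.86 to 1.22. The YAB5 contig had no value with a filter at 500 and gave 1.41 to 1.93 when a sample was left out; it was kept only through its mature values, so these do not bear on its call. CRC kept its direction in 19 of 19 and lost its call in 11. Its log2 fold change was 0.64 with a pseudocount of 0.5 (limma adjusted p = 0.05002), with no filter (0.0596), with the contig of highest mean (0.0601) and with a replicate block (0.0592), and 0.48 after rescaling to the total over loci (0.0623) or to the total without ribosomal RNA and organelles (0.0617). Under each of these 6 settings 1 member was called higher, and 1 to 2 when a sample was left out. Leaving out a sample gave 0.51 to 0.77 for CRC. The adjusted p of CRC moves around a threshold that it passed by a small margin; the cause of each change was not tested.

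With a filter at 500, which tests fewer loci, 1856 loci were higher and 1566 lower, against 3348 and 4225. Of the listed loci, 14 were higher with median-of-ratios size factors and 15 with the ribosomal RNA covariate, against 8, and 7 to 13 without 1 sample (13 without mature sample 2). With a filter at 500, 3 were lower, against 11. Of the 15 list loci named by the rule 13 kept their call in every alternative with a value, and 0 reversed.

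Correlations of deviations between the stages were -0.07, 0.01 and 0.20 for samples of the same number (1 to 3), and -0.18 to 0.19 for unlike numbers. With 3 samples per stage these values cannot decide whether the replicate numbers pair the samples. With the block 3454 loci were higher and 4320 lower, 8 listed loci higher and 12 lower, and YAB2 had a log2 fold change of 1.02 (limma adjusted p = 0.000849) and the YAB5 contig of 1.68 (0.00405). Limma p-values rest on the spread between 3 pools per stage, moderated toward the mean-variance trend of all loci or contigs tested. For CRC the SE was 0.24 with the trend (limma adjusted p = 0.0490) and 0.19 without it (0.0195). Depth limits low values such as those of the YAB5 contig, with 40 to 115 reads per sample, and of TORNADO2 in mature nectaries.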

Other observations

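Listed loci below the filter were not tested, but their values are given here. JAGGED (Ta17549), a zinc finger factor that promotes the growth of lateral organs, was at 148, 63 and 80 normalized counts in immature samples 1 to 3 and at 5, 0 and 5 in mature samples 1 to 3. ATHB15 (Ta11001), a class III HD-ZIP factor, was at 106, 105 and 68 in immature and at 41, 23 and 22 in mature nectaries. Both were in the deposited table only through an immature value above 100, so that a decrease was favoured. In both every immature sample lay above every mature sample, as in 39.1% of all loci tested.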
